A study of Danio rerio with 6 samples.

Results

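The globin genes of the zebrafish kidney marrow are described here, the genes that encode the protein chains of haemoglobin. The group holds 10 genes, taken by zebrafish gene name from a deposited count table of 32057 rows. The embryonic alpha genes are hbae1.1, hbae1.2, hbae1.3 and hbae3, the adult alpha genes hbaa1 and hbaa2, the embryonic beta genes hbbe1.1 and hbbe2, and the adult beta genes hbba1 and hbba2. A row of its own name was found for 6 of the 10, and all of these are alpha genes. The other 4, all beta genes, could not be matched by name, while 7 rows of the table carry the single human symbol HBE1, that of a human beta-type globin. The name table does not say which zebrafish beta gene each of these rows is, so they are described under their Ensembl identifiers and called neither embryonic nor adult. The genes were picked because of how they differed between the genotypes in these same libraries. Their levels in the 2 genotypes are therefore given as a description. How many of them passed a test fitted over all genes is stated beside the share of all genes that did, and nothing is drawn from it.

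Whole kidney marrow (WKM) cells, the blood-forming tissue of the adult fish, came from wild-type (WT) fish, which were of the AB strain, and from the double transgenic line Tg(drl:hoxa9;hsp70:meis1), called Tg here. The Tg fish carry a myc-tagged hoxa9 behind the draculin (drl) element, which is active in blood cells, and meis1b joined to GFP by a 2A peptide behind the heat shock promoter hsp70. Each of the 3 samples per genotype pooled the cells of 3 kidneys, so fish within a pool cannot be told apart. All 6 samples are labelled as 5 months old. The methods of the study give about 5 months as well, while its results text gives a younger age for this experiment. No source used here gives the heat shock schedule of the sequenced fish. Poly(A) RNA was sequenced, and the genotypes differ in both transgenes at once.

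Haemoglobin is a tetramer of alpha-type and beta-type chains, each holding a haem group that binds oxygen. Vertebrates change the chains they make as they develop, and in zebrafish the primitive red cells of the embryo use embryonic chains, which the definitive red cells of later life replace with adult ones. The kidney marrow is where the adult fish makes its red cells, and zebrafish red cells keep their nucleus. The genes lie in clusters in which alpha and beta genes alternate. In the GRCz12tu assembly of RefSeq, which is newer than the GRCz11 assembly used for the counts, the cluster on chromosome 3 runs in the order hbaa2, hbba2, ba1l, hbaa1, hbba1, si:ch211-5k11.8, hbbe1.1, hbae1.1, hbbe1.2, hbae1.2, hbbe1.3, hbae1.3 and hbae3. A smaller cluster on chromosome 12 holds hbae4, hbbe3, hbbe2 and hbae5. All the adult genes thus stand together at one end of the larger cluster, and the copies of hbae1 alternate with those of hbbe1 at the other.

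Total counts were 50767535 to 64888212 per library, and levels are given in CPM, counts over the library total on the usual scale, adjusted by trimmed mean of M-values (TMM) factors, without correction for gene length. The limit that a count of 0 sets in a library (3 counts) lay between 0.0457 and 0.0606 CPM and covers counting error only. The alpha and beta haemoglobin rows together took 2.86, 3.71 and 5.40% of all counts in the WT pools (replicates 1, 2 and 3, the order used throughout) and 3.06, 4.25 and 5.68% in the Tg pools. Red cell markers other than globins had a summed level between 4207 and 8300 CPM in WT and between 4228 and 8200 CPM in Tg. Of the 9 tested, edgeR called 0 and DESeq2 called 0, beside 0.562% and 6.27% of all genes they tested. An unadjusted p under 0.05 was found for 0 of the 9, beside 19.8% of all genes tested. Progenitor markers had a summed level between 330 and 353 CPM in WT and between 728 and 801 CPM in Tg. Kidney tubule markers, of cells that are not blood, summed to 4977, 1797 and 2117 CPM in WT and to 1276, 1606 and 1289 CPM in Tg, with WT replicate 1 the highest. All 9 tested had negative log2 fold changes, with a median of −1.17 beside 0.01 for all genes tested. Lower in Tg, edgeR called 1 and DESeq2 called 5 of them, beside 0.363% and 5.03% of all genes they tested. Because the samples are bulk tissue, fewer cells of a type and less RNA per cell cannot be told apart.

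The 3 copies of hbae1, embryonic alpha genes, had counts in every library of both genotypes and stood far lower in Tg. hbae1.1 (ENSDARG00000089475) stood at 6.82, 59.0 and 31.4 CPM in WT and at 0.412, 1.37 and 2.57 CPM in Tg. hbae1.2 (ENSDARG00000088330) stood at 7.44, 50.4 and 31.7 CPM in WT and at 0.599, 2.47 and 1.02 CPM in Tg. hbae1.3 (ENSDARG00000089124) stood at 7.86, 68.8 and 29.8 CPM in WT and at 0.880, 2.10 and 1.59 CPM in Tg. For each copy WT replicate 2 was the highest and WT replicate 1 the lowest of the WT pools, and even that lowest pool lay above every Tg pool. The log2 fold changes of Tg over WT were −4.47 (SE 0.95) for hbae1.1, −4.46 (SE 0.84) for hbae1.2 and −4.54 (SE 0.81) for hbae1.3. The copies are alike in sequence, and since no source used here names the counting step, reads of one copy may have been counted for another.

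Of the 6 matched genes 5 had enough counts to be tested, and edgeR's quasi-likelihood test called 0 of them at a false discovery rate (FDR) below 0.05 with a change of 2-fold or more. By the same rule 0.562% of the 20123 genes tested were called, 0.199% with Tg higher and 0.363% with Tg lower. At an unadjusted p under 0.05 the count was 3, the hbae1 copies, all lower in Tg, beside 19.8% of all genes tested in either direction and 10.8% with Tg lower. limma-voom called 0, beside 0.239% of all genes (0.114% with Tg higher and 0.124% with Tg lower). DESeq2 called these 3 genes, beside 6.27% of all genes it tested (1.25% with Tg higher and 5.03% with Tg lower). The groups did not overlap for the same 3 genes, all lower in Tg, beside 28.1% of all genes tested in either direction and 14.1% with Tg lower. Nothing is read from these counts, since the genes were picked on this contrast.

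The sum of the hbae1 copies keeps the reads that may have moved between copies together. It rested on 1219, 9941 and 6096 counts in WT and on 101, 294 and 310 counts in Tg. The mean was 97.7 ± 78.2 CPM in WT and 4.34 ± 2.15 CPM in Tg (SD, n = 3), 22.5-fold lower in Tg. The WT pools spread widely, the highest being 8.06 times the lowest, and the Tg pools spread 3.14-fold. The lowest WT pool was 3.72 times the highest Tg pool. WT replicate 2 weighed most on the fold change, which was 13.3-fold without it and between 17.6-fold and 31.3-fold without any other single library. The WT pool with the most kidney tubule RNA, replicate 1, was the one with the least hbae1, and the part of tubule RNA in the difference was not tested.

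The copies shared the hbae1 counts almost evenly in WT and unevenly in Tg. In WT no copy took under 28.3% of the hbae1 counts of a library, and the leading share was that of hbae1.3 in replicate 2, with 3837 of 9941 counts. In Tg the leading copy changed from pool to pool. It was hbae1.3 in replicate 1 at 46.5% (95% exact binomial interval 36.5 to 56.7%), hbae1.2 in replicate 2 at 41.5% (35.8 to 47.4%) and hbae1.1 in replicate 3 at 49.7% (44.0 to 55.4%). These Tg shares rest on 101 to 310 counts a library, and the intervals cover counting error only. hbae3 (ENSDARG00000079305), the embryonic alpha gene at the end of the cluster, had a count of 0 in all 6 libraries, so no comparison of it is possible at this depth.

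**Figure D1:**
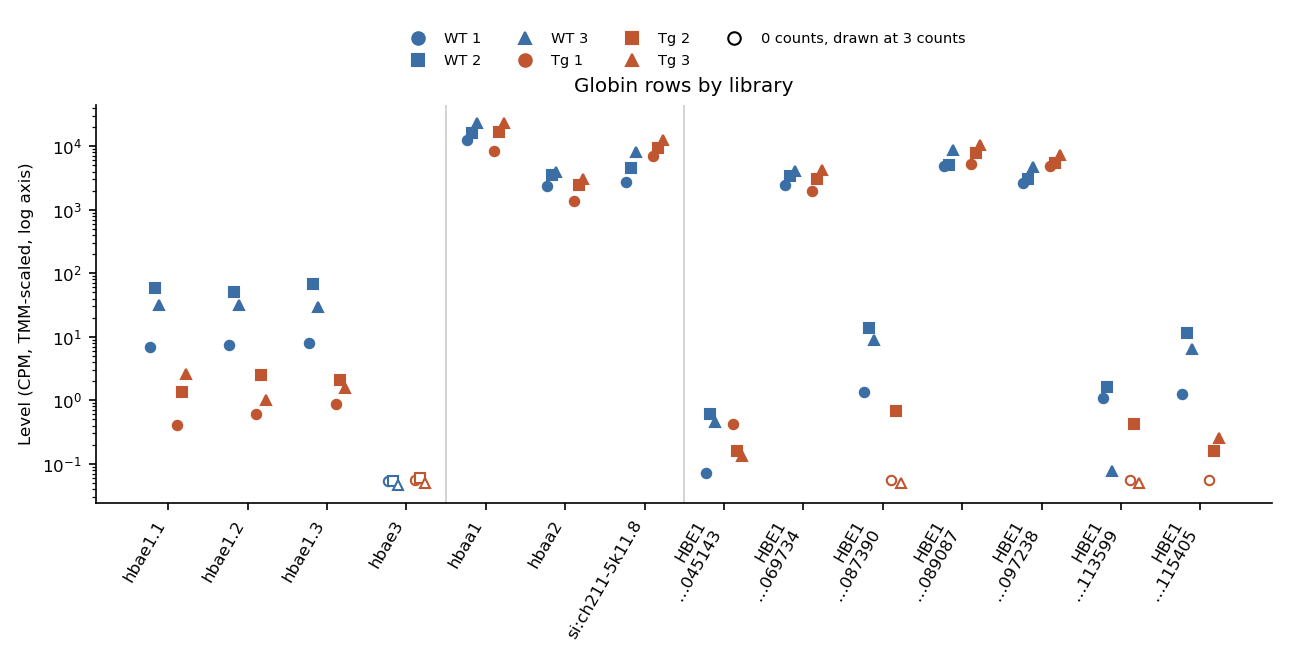
Level of each globin row by library (CPM, TMM-scaled, log axis), WT in blue and Tg in orange, with circles, squares and triangles for replicates 1, 2 and 3 and open symbols for a count of 0, drawn at the level of 3 counts. The hbae1 copies lie at 6.82 to 68.8 CPM in WT and 0.412 to 2.57 CPM in Tg, while hbaa1 and hbaa2 overlap between the genotypes.

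The adult alpha genes differed far less between the genotypes than the hbae1 copies, and their pools overlapped. hbaa1 (ENSDARG00000097011) stood at 12677, 15932 and 23386 CPM in WT and at 8320, 17029 and 23097 CPM in Tg. Its mean was 17332 ± 5490 CPM in WT and 16149 ± 7428 CPM in Tg (SD, n = 3). The log2 fold change was −0.10 (SE 0.41), and it ran from −0.45 to 0.21 when single libraries were left out, so hbaa1 has no stable direction here. hbaa2 (ENSDARG00000069735) stood at 2382, 3538 and 3960 CPM in WT and at 1367, 2431 and 3099 CPM in Tg. Its log2 fold change was −0.52 (SE 0.32), and it ran from −0.79 to −0.25 without single libraries. In both genotypes replicate 1 had the lowest adult alpha level and replicate 3 the highest.

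A further adult alpha row bears on these sums. It is named si:ch211-5k11.8 (ENSDARG00000079078), for which RefSeq lists the synonym hbaa1.2, and it lies next to hbba1 in the cluster. It is no member of the group, and it was added to the sums after the data had been seen. It stood at 2739, 4510 and 8132 CPM in WT and at 7161, 9343 and 12379 CPM in Tg. The highest WT pool lay above the lowest Tg pool, and the log2 fold change of 0.91 (SE 0.41) did not pass the test (edgeR quasi-likelihood, adjusted p = 0.273). The sum of hbaa1 and hbaa2 was 20625 ± 6225 CPM in WT and 18448 ± 8301 CPM in Tg, a log2 ratio of −0.16. With si:ch211-5k11.8 added, the log2 ratio was 0.12. The sign of the adult alpha difference thus turned with the row counted, and it turned for hbaa1 with hbaa2 alone without WT replicate 3 (0.10) or Tg replicate 1 (0.15). All these values lie within the spread of the pools.

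The mix of adult alpha rows within a library differed between the genotypes without overlap. hbaa1 took 71.2, 66.4 and 65.9% of the counts of the 3 adult alpha rows in WT and 49.4, 59.1 and 59.9% in Tg. hbaa2 took 13.4, 14.8 and 11.2% in WT and 8.11, 8.44 and 8.03% in Tg. si:ch211-5k11.8 took 15.4, 18.8 and 22.9% in WT and 42.5, 32.4 and 32.1% in Tg. A share does not depend on how much red cell RNA a library holds, nor on the scaling of libraries. It can depend on how reads of alike copies were assigned, which cannot be checked here.

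**Figure D2:**
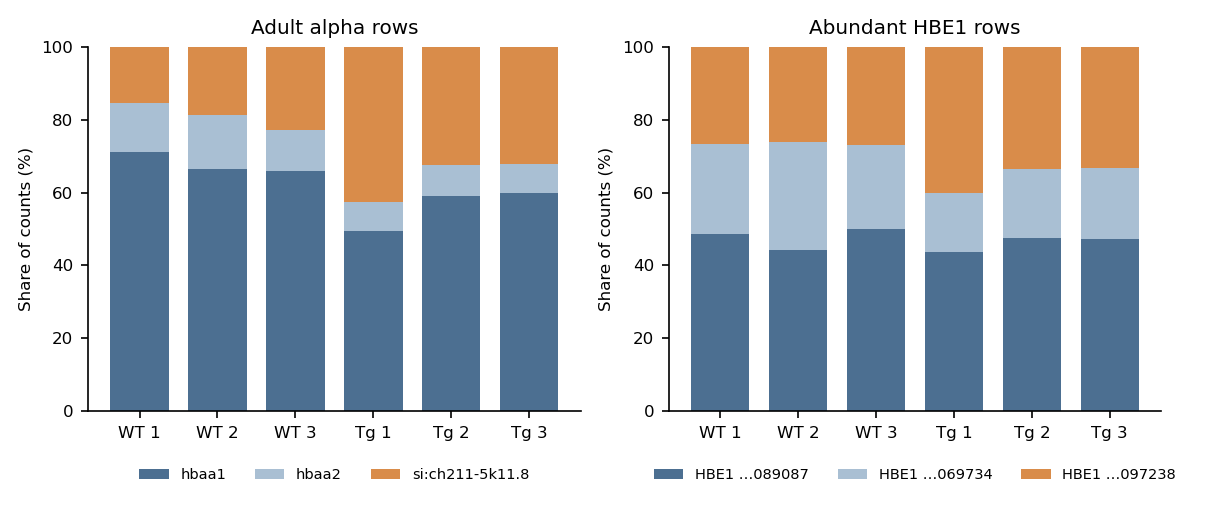
Shares of counts (%) among the 3 adult alpha rows (left) and the 3 abundant HBE1 rows (right), 1 bar per library and counts not corrected for length. si:ch211-5k11.8 takes 15.4 to 22.9% in WT and 32.1 to 42.5% in Tg. The HBE1 row ENSDARG00000097238 takes 26.1 to 26.8% in WT and 33.2 to 40.1% in Tg.

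The beta-type chains are the partners of the alpha chains in the tetramer, and their 7 HBE1 rows fell into 3 abundant rows, with a mean of at least 100 CPM, and 4 scarce ones. RefSeq lists 7 beta globin genes without a row of their own name in the table, the same number, but the rows cannot be paired with them. Of the 7 rows, all of which could be tested, edgeR called 0. At an unadjusted p under 0.05 there were 3, of which 2 had lower and 1 had higher levels in Tg, beside 19.8% of all genes tested. limma-voom called 0, and DESeq2 called 1, the scarce row ENSDARG00000115405, beside 0.239% and 6.27% of all genes and 0.562% by edgeR. These rows stand in for members picked on this contrast, so nothing is read from their counts either. The groups did not overlap for 3 rows, 2 scarce ones with Tg lower and 1 abundant one with Tg higher, beside 14.1% and 14% of all genes tested.

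Of the scarce rows, 2 stood lower in every Tg pool than in any WT pool and the other 2 overlapped. ENSDARG00000087390 stood at 1.36, 14.0 and 8.85 CPM in WT and at 0, 0.667 and 0 CPM in Tg. ENSDARG00000115405 stood at 1.27, 11.4 and 6.43 CPM in WT and at 0, 0.162 and 0.250 CPM in Tg. Both rows were lowest in WT replicate 1 and highest in WT replicate 2, the same order as the hbae1 copies. ENSDARG00000113599 stood at 1.07, 1.60 and 0.0762 CPM in WT and at 0, 0.424 and 0 CPM in Tg, and the groups overlapped. ENSDARG00000045143 had at most 0.610 CPM in any library and overlapped as well, with 68 counts in WT and 39 in Tg.

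The 4 scarce rows summed to 3.77, 27.6 and 15.8 CPM in WT and to 0.431, 1.41 and 0.384 CPM in Tg. The mean was 21.2-fold lower in Tg, from 208, 1540 and 1038 counts in WT and 23, 70 and 23 counts in Tg. The Tg mean was 0.0472 of the WT mean with all libraries, 0.0259 of it without Tg replicate 2 and 0.0759 of it without WT replicate 2. The hbae1 sum was 5.86, 6.46 and 5.87 times the scarce HBE1 sum in the WT pools, so these sums kept nearly 1 ratio across WT pools whose hbae1 levels spread 8.06-fold. In Tg the ratio was 4.39, 4.20 and 13.5. Tg replicates 1 and 3 each rest on 23 counts of the scarce rows, and in replicate 1 all 23 are of ENSDARG00000045143. Without that row the scarce sum had a mean of 15.4 CPM in WT and 0.501 CPM in Tg, 30.6-fold lower. It then had 0 counts in Tg replicate 1, so the Tg ratios do not show whether the WT ratio was kept.

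The 3 abundant HBE1 rows had high counts in every library. ENSDARG00000069734 stood at 2471, 3423 and 4098 CPM in WT and at 1968, 3088 and 4311 CPM in Tg, a log2 fold change of −0.09 (SE 0.31). ENSDARG00000089087 stood at 4852, 5111 and 8888 CPM in WT and at 5343, 7790 and 10448 CPM in Tg, a log2 fold change of 0.32 (SE 0.33). Both overlapped between the genotypes. ENSDARG00000097238 stood at 2655, 3011 and 4752 CPM in WT and at 4897, 5476 and 7320 CPM in Tg, a log2 fold change of 0.76 (SE 0.27). All its Tg pools lay above all its WT pools, the lowest Tg pool only just, and the fold change ran from 0.58 to 1.04 without single libraries. The 3 rows summed to 13087 ± 4103 CPM in WT and 16880.4 ± 4956 CPM in Tg (SD, n = 3), a ratio of 1.29 that lies within the spread of the pools.

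Within the abundant HBE1 counts, ENSDARG00000097238 took 26.6, 26.1 and 26.8% in WT and 40.1, 33.5 and 33.2% in Tg. ENSDARG00000069734 took 24.8, 29.7 and 23.1% in WT and 16.1, 18.9 and 19.5% in Tg. ENSDARG00000089087 took 44.3 to 50.1% in WT and 43.8 to 47.6% in Tg, with overlap. Tg replicate 1 lay farthest from WT in the shares of both ENSDARG00000097238 and si:ch211-5k11.8.

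**Figure D3:**
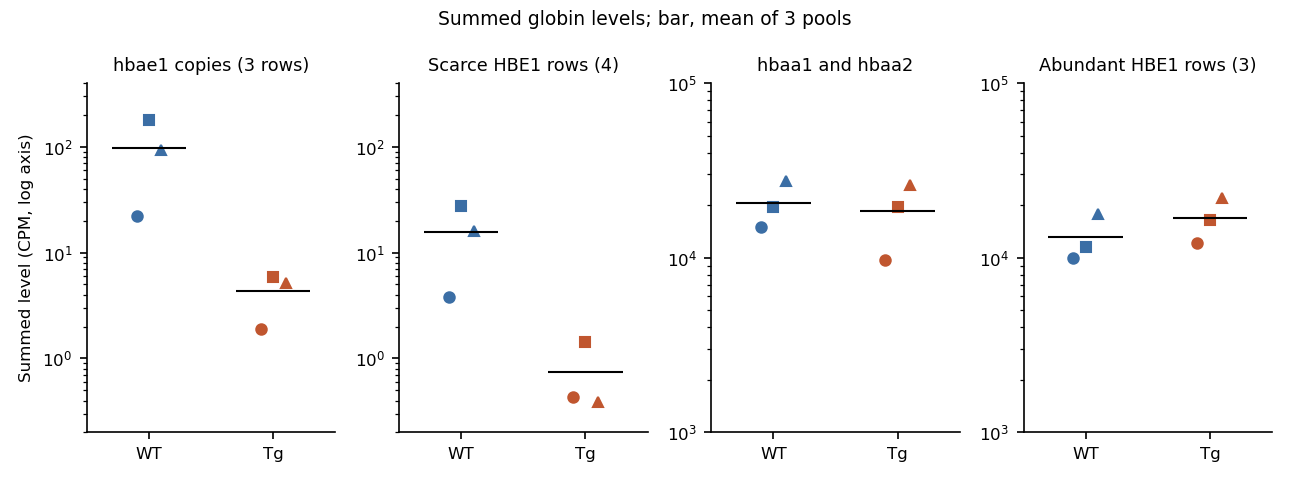
Summed levels (CPM, log axis) of the hbae1 copies, the 4 scarce HBE1 rows, hbaa1 with hbaa2, and the 3 abundant HBE1 rows, 1 symbol per pool and a bar at the mean of 3 pools. The hbae1 sum lies at 22.1 to 178 CPM in WT and 1.89 to 5.94 CPM in Tg, and the adult alpha and abundant HBE1 sums overlap. Circles, squares and triangles are replicates 1, 2 and 3.

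Set against the adult alpha genes of the same library, the hbae1 share was lower in Tg. This share rests on the same hbae1 counts as the sum, so it is no separate result. The hbae1 copies took 0.147% (95% exact binomial interval 0.139 to 0.155%), 0.907% (0.889 to 0.925%) and 0.339% (0.330 to 0.347%) of the counts of hbae1, hbaa1 and hbaa2 in the WT pools. In the Tg pools they took 0.0195% (0.0159 to 0.0237%), 0.0305% (0.0271 to 0.0342%) and 0.0197% (0.0176 to 0.0221%). The mean Tg share was 0.0501 of the mean WT share, and 0.0959 of it without WT replicate 2. These intervals cover counting error only and are no comparison of the genotypes, and those of the WT pools do not overlap each other either. The scarce rows took 0.0378, 0.239 and 0.0891% of all HBE1 counts in WT and 0.00353, 0.00865 and 0.00174% in Tg.

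From the same hbae1 counts, hbae1 was lower in Tg, without overlap, when set against other genes of red cells. Per 1000 counts of alas2, the first enzyme of haem synthesis in red cells, there were 33.5, 206 and 64.2 hbae1 counts in WT and 2.07, 4.13 and 2.99 in Tg. Per 1000 counts of SLC4A1, the band 3 anion exchanger of the red cell membrane, there were 12.3, 80.3 and 29.5 in WT and at most 2.42 in Tg. hbaa1 and hbaa2 together were 22.8, 22.5 and 18.9 times the alas2 counts in WT and 10.6, 13.5 and 15.1 times in Tg, without overlap. That ratio leaves out si:ch211-5k11.8, and alas2 itself had a log2 fold change of 0.46 (SE 0.34). With si:ch211-5k11.8 added, the adult alpha sum had a log2 ratio of 0.12, while SLC4A1 had a mean of 2390 CPM in both genotypes. The adult alpha ratio was not computed against SLC4A1 or with that row.

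The balance of alpha over beta counts also differed between the genotypes. Counts of hbae1, hbaa1 and hbaa2 were 1.51, 1.70 and 1.55 times those of the HBE1 rows in WT and 0.794, 1.19 and 1.19 times in Tg. The mean Tg ratio was 0.667 of the mean WT ratio. With si:ch211-5k11.8 counted as an alpha row, the ratios were 1.79, 2.09 and 2.00 in WT and 1.38, 1.76 and 1.75 in Tg, and the mean Tg ratio was 0.832 of that in WT. The groups stayed apart under both counts, while the size of the difference depended on that row. These are ratios of RNA counts without correction for length and say nothing of protein chains.

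The other globin genes with counts lie outside the group. On chromosome 12, hbae4 stood at 34.1, 33.7 and 45.6 CPM in WT and at 33.2, 50.3 and 54.5 CPM in Tg (log2 fold change 0.28, SE 0.22, edgeR adjusted p = 0.533). Its neighbour hbae5 stood at 5.44, 4.43 and 7.54 CPM in WT and at 2.02, 3.64 and 8.51 CPM in Tg (log2 fold change −0.30, SE 0.54, edgeR adjusted p = 0.810). Both overlapped between the genotypes. Both carry the hbae name of the embryonic alpha genes, and the large difference of the hbae1 copies was not seen in them. hbbe3 had 23 counts, all in WT replicate 1. Of the globins that do not serve in red cells, mb, the oxygen-storing myoglobin of muscle, stood at 317, 111 and 163 CPM in WT and at 63.9, 82.2 and 98.4 CPM in Tg. Its log2 fold change of −1.27 (SE 0.38) did not pass edgeR's test (adjusted p = 0.142) and was called by DESeq2, and its highest library, WT replicate 1, was also the highest for tubule markers. CYGB, a globin of many tissues, differed by 0.09 on the log2 scale (SE 0.61), xgb and cygb2 had at most 30 counts per genotype, and NGB, the globin of nerve cells, had none.

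Haem synthesis supplies the group that every globin chain holds. Of 16 genes of this pathway tested, edgeR called 0 and DESeq2 called 0, beside 0.562% and 6.27% of all genes they tested. At an unadjusted p under 0.05, 2 were higher and 1 lower in Tg, beside 19.8% of all genes tested in either direction. The median log2 fold change of the 16 was 0.19, beside 0.01 for all genes tested. alas2 stood at 991 ± 407 CPM in WT and 1361 ± 414 CPM in Tg (SD, n = 3), a log2 fold change of 0.46 (SE 0.34). CPOX, coproporphyrinogen oxidase, stood at 162 ± 33.0 CPM in WT and 169 ± 37.0 CPM in Tg. Each of these differences was smaller than the SD of the pools of either genotype.

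Genes of the red cell membrane and its enzymes gave a similar picture. Of 17 tested, edgeR called 0 and DESeq2 called 0, beside 0.562% and 6.27% of all genes they tested. At an unadjusted p under 0.05, 1 was higher in Tg, beside 19.8% of all genes tested in either direction. The median log2 fold change of the 17 was 0.09. SLC4A1 stood at 2390 ± 693 CPM in WT and 2390 ± 785 CPM in Tg. cahz, a carbonic anhydrase of red cells, stood at 1163 ± 552 CPM in WT and 1264 ± 399 CPM in Tg. SPTB, the beta spectrin of the membrane skeleton, stood at 480 ± 132 CPM in WT and 495 ± 156 CPM in Tg. In both genotypes replicate 3 had the highest SLC4A1 and hbaa1 levels and replicate 1 the lowest. The hbae1 sum was also lowest in replicate 1 in both, but highest in replicate 2. In Tg replicates 2 and 3 lay close, at 5.94 and 5.17 CPM, and hbae1.1 alone was highest in replicate 3.

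Regulators of red cell formation and of globin switching were the third list. Of 29 tested, edgeR called 0, beside 0.562% of all genes tested. At an unadjusted p under 0.05, 7 were higher and 1 lower in Tg. Of all genes tested, 19.8% passed this in either direction, 10.8% with Tg lower and the rest with Tg higher. The median log2 fold change was 0.32, beside 0.01 for all genes tested. The most abundant were CHD4 and chd4b, ATPases of a chromatin-remodelling complex that takes part in globin silencing in mammals, and MYB, a transcription factor of progenitors. MYB stood at 186 ± 24.7 CPM in WT and 372 ± 52.5 CPM in Tg, a log2 fold change of 0.997 with an edgeR adjusted p of 0.0501. DESeq2 called 3 regulators, all higher in Tg, beside 1.25% of all genes with Tg higher, and they are named here because of that count and after their values were seen. ZFPM1, a partner of GATA1, stood at 44.3 ± 9.04 CPM in WT and 91.8 ± 3.35 CPM in Tg (edgeR adjusted p = 0.0501). BCL11A, which silences fetal globin in humans, stood at 30.4 ± 9.84 CPM in WT and 64.8 ± 7.64 CPM in Tg (edgeR adjusted p = 0.0909). igf2bp1, an RNA-binding protein, stood at 2.00, 2.40 and 3.95 CPM in WT and at 9.48, 8.22 and 7.46 CPM in Tg (edgeR adjusted p = 0.0860). gata1a, the leading red cell transcription factor, stood at 48.7, 68.8 and 96.2 CPM in WT and at 38.0, 52.0 and 59.2 CPM in Tg. Its groups overlapped, and its log2 fold change was −0.52 (SE 0.27, edgeR adjusted p = 0.349). It was 1 of 8 regulators with a negative log2 fold change, against 21 with a positive one. MYB is also 1 of the 5 progenitor markers, all of which had positive log2 fold changes. edgeR called 4 of these 5, beside 0.199% of all genes tested with Tg higher, and 0 to 2 without single libraries. The part of progenitor cells in the regulator levels was not tested.

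**Figure D4:**
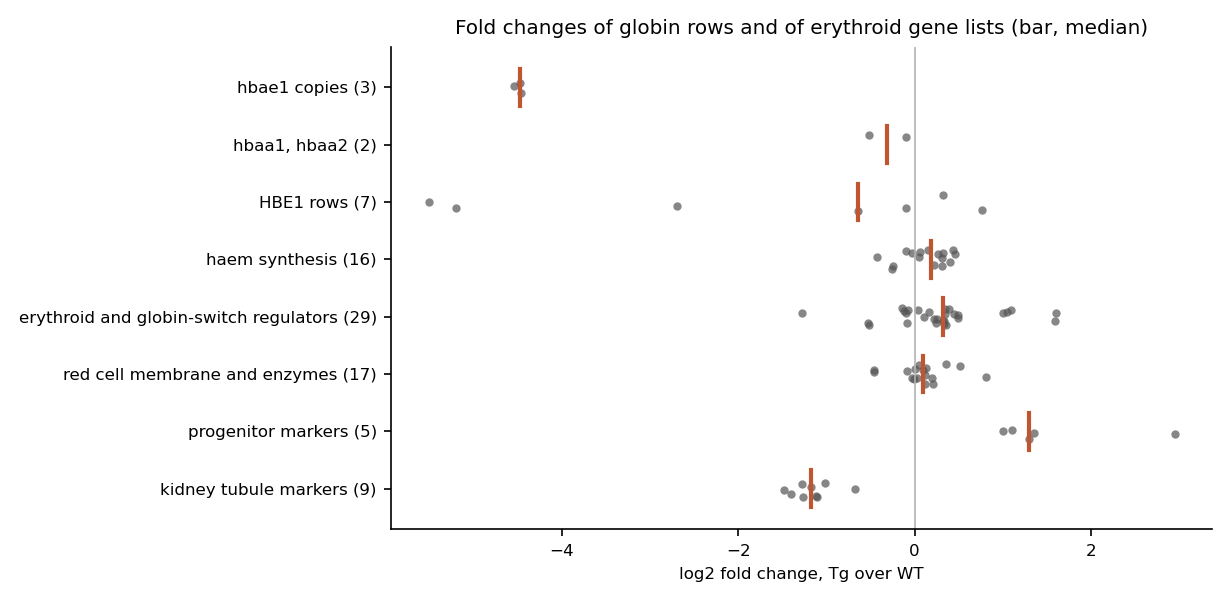
Log2 fold change of Tg over WT for each tested gene (points) and the median (bar) of the hbae1 copies, hbaa1 with hbaa2, the HBE1 rows, and the lists of haem synthesis, regulators, red cell membrane, progenitor markers and kidney tubule markers, with the number of genes in brackets. The hbae1 copies lie at −4.54 to −4.46, and the medians of the red cell lists lie at 0.19, 0.32 and 0.09.

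The genes with the profile most like each sum over the 6 libraries were found by the root mean square (RMS) difference of centred log2(CPM + 1) values among 11073 genes. For the hbae1 sum they were tuba7l, msrab, cxcl11.8, mxh and slco1f2, at RMS differences of 0.679 to 1.21. The closest, tuba7l, an alpha tubulin, stood at 2.18, 21.9 and 7.76 CPM in WT and at 0.187, 0.202 and 0.350 CPM in Tg. tuba7l and mxh had the same order of WT pools as hbae1, while msrab, cxcl11.8 and slco1f2 did not. Since these genes were picked for a like profile, nothing is read from a shared order. For hbaa1 with hbaa2 they were ifi44f1, znfl2a, BLOC1S5, SLC4A1 and pdgfbb, at 0.118 to 0.180. For the abundant HBE1 rows they were MLLT3, wbp4, eif2ak1, PLAC8L1 and GSDME, at 0.0594 to 0.101. eif2ak1 encodes the haem-regulated kinase that halts globin translation when haem is scarce. The adult alpha sum and the abundant HBE1 sum thus had smaller RMS differences to their closest genes than the hbae1 sum. These differences were not scaled to the spread of a profile, and the hbae1 sum ran from 1.89 to 178 CPM. They therefore do not compare how closely genes tracked each sum.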

How the data were processed

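The authors purified poly(A) RNA from pooled kidney cells. Reads were trimmed (cutadapt 1.9) and aligned (HISAT2 2.0.4) against the GRCz11 build, and transcripts were assembled (StringTie 1.3.4d). Their deposited table holds raw counts per gene and library, without normalization, and no source used here names the counting step. The table has 32057 rows, 6474 of them without a count, and 28988 matched a symbol. Library totals were 50767535 to 64888212.

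Counts were filtered with filterByExpr, scaled by TMM and tested with edgeR 4.0.16 in R 4.3.3 (quasi-likelihood, all 6 libraries, no covariate, Benjamini-Hochberg over 20123 genes). A call took an FDR under 0.05 and a fold of at least 2. Alternatives were DESeq2 1.42.0, limma-voom (limma 3.58.1), other scalings, no filter, a replicate block and each library left out. Only the shares of counts carry binomial intervals (exact, 95%). p-values measure the spread between pools, 3 per genotype, and an exact permutation test of 3 against 3 cannot go below 0.1. On simulated counts (19291 genes), genes were taken at an FDR under 0.05 without the fold threshold, unlike the calls above. There the quasi-likelihood test recovered 18% of genes changed 2-fold and 72% of those changed 4-fold, with 8 false among 98 taken. The changed genes were drawn only from those above a minimum mean level. The scarce HBE1 rows lie below that level, so these rates do not cover them.

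The members and gene lists were chosen with earlier results of these data known. Members were matched by zebrafish name, list genes by their own symbol or that of their human match, and the most counted row stood for a shared symbol. Named were all members, other globin genes with a count, and the 5 genes most like each sum. Of each pathway list, but not of the cell type markers, the called genes and the 3 most abundant were named. gata1a and the 3 regulators called by DESeq2 were named outside this rule. 1 gene that this rule names is not reported here. hbba1, hbba2, hbbe1.1 and hbbe2 could not be matched, so the planned sums and share of embryonic and adult beta genes were not computed and the 7 HBE1 rows, split at a mean of 100 CPM, stand in their place. No sequence is shown.

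Rows counted with si:ch211-5k11.8, and a DESeq2 setting, were added after the data had been seen. DESeq2 was planned with its default independent filtering. It was rerun with filtering set for an FDR of 0.05 once the first counts of calls were known and had been compared with an earlier analysis of the same table, and both are given.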

Additional observations from a re-analysis of the deposited data

How the results depend on the processing

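Under edgeR's quasi-likelihood test 40 genes were called higher and 73 lower in Tg. DESeq2 with its default filtering called 279 and 1122, DESeq2 with filtering set for the FDR threshold 280 and 1134, and limma-voom 23 and 25. Without single libraries the counts ran from 0 to 28 higher and from 0 to 60 lower. Of the matched globin genes 0 were called, against 3 by DESeq2 under either filtering and 0 to 1 without single libraries, the 1 being hbae1.3 without WT replicate 1. Of the HBE1 rows 0 were called, against 1 by DESeq2 under either filtering.

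The Tg to WT ratio of the hbae1 share was 0.0501 and ran from 0.0374 to 0.0959 without single libraries. That of the alpha to beta ratio was 0.667, with 0.508 when hbaa1 was left out, 0.832 with si:ch211-5k11.8 added, and 0.625 to 0.75 without single libraries. The cause of these shifts was not tested beyond the rows and libraries changed. The log2 ratios of the hbae1, adult alpha and HBE1 sums moved by less than the spread of the pools under the scalings and the libraries left out. The adult alpha sum, which was not tested, changed sign without WT replicate 3 or Tg replicate 1.

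Over all genes, same-numbered libraries did not deviate together (correlations of −0.09, −0.14 and 0.13), so the numbers were not taken as pairs. The adult alpha and SLC4A1 levels nonetheless rose from replicate 1 to replicate 3 in both genotypes. With the replicate block 0 genes were called higher and 1 lower, and 0 globin rows. The SE with the block was 0.44 for hbae1.1, 0.21 for hbaa1 and 0.15 for hbaa2. Without it these were 0.95, 0.41 and 0.32. The SE fell for the other tested globin rows too, except ENSDARG00000045143, ENSDARG00000113599 and mb, where it rose. The overlaps of pools given above take no account of replicate number.

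With 3 pools per genotype and the hbae1 levels of WT spread 8.06-fold, the size of that difference is loosely fixed. Tg values of the scarce HBE1 rows rest on few counts, and reads of alike copies cannot be separated here. No beta gene of the group was matched to a row, and no HBE1 row to a zebrafish gene.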
